A study of Mus musculus with 8 samples.

Results

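The genes for the proteins of the cytosolic ribosome were followed through peaks of histone H3 acetylated at lysine 27 (H3K27ac) in mouse breast tumors. Members were the autosomal protein-coding genes of the GENCODE M21 annotation (mouse build mm10) whose symbol is Rpl or Rps with a number and at most a closing a or x, together with Rplp0, Rplp1, Rplp2 and Rpsa. This rule gave 72 of 21938 protein-coding genes, 43 of the large and 29 of the small ribosomal subunit. It used symbols only and no measured value. Chromatin immunoprecipitation with sequencing (ChIP-seq) was done on tumors of Balb/c females that carried PyMT, a viral oncogene driven in the mammary gland by the MMTV promoter, and Rag1KO, so that the hosts made no T or B cells of their own. All mice had received wt CD4+ T cells intravenously at 4 weeks of age. Control tumors (n = 2) came from PyMT;Rag1KO mice, and test tumors (n = 2, titled cysts) from K14-TSLPtg;PyMT;Rag1KO mice, in which the keratin 14 promoter drives the cytokine thymic stromal lymphopoietin. The groups address what TSLP with CD4+ T cells does to the chromatin of the tumors.

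Each ribosome holds 1 copy of nearly every ribosomal protein, and the genes are transcribed in almost all dividing cells, which is why they are treated as housekeeping genes. H3K27ac marks active promoters and enhancers and lies on the nucleosomes that flank a transcription start. Many ribosomal protein transcripts in mammals begin inside a run of pyrimidines, the terminal oligopyrimidine tract, through which mTOR signalling controls their translation.

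Promoter stretches of the 4 members with the narrowest and the 4 with the widest peaks are shown because they bracket the widths measured. Each runs from 100 bp before the start of the principal transcript, with the start as the first of the last 20 bases, in GRCm38.p6 (the mm10 sequence), with the longest run of pyrimidines between 50 bp before and 20 bp after the start in capitals. The stretch of Rps24 is chr14:24490618-24490737 on the plus strand. The stretch of Rpl3 is chr15:80083387-80083506 on the minus strand. The stretch of Rps20 is chr4:3835646-3835765 on the minus strand. The stretch of Rplp0 is chr5:115559367-115559486 on the plus strand. The stretch of Rpl13 is chr8:123102250-123102369 on the plus strand. The stretch of Rpl18 is chr7:45715357-45715476 on the plus strand. The stretch of Rpl10a is chr17:28328468-28328587 on the plus strand. The stretch of Rpl36 is chr17:56613316-56613435 on the plus strand. The sequences follow from narrowest to widest.
Rps24: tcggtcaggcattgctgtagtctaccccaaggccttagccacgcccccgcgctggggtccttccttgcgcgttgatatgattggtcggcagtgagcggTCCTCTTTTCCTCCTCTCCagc
Rpl3: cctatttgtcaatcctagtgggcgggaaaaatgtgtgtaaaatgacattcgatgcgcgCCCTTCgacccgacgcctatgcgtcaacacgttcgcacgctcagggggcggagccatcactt
Rps20: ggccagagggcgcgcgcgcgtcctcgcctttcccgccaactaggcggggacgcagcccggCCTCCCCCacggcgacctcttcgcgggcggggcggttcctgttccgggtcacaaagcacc
Rplp0: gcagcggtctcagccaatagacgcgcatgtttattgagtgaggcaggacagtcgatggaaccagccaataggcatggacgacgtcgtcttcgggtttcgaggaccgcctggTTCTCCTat
Rpl13: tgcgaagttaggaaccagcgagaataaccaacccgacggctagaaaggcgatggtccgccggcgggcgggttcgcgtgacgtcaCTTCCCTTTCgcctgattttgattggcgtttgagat
Rpl18: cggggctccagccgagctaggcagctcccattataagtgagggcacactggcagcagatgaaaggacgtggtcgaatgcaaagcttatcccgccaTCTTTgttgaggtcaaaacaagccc
Rpl10a: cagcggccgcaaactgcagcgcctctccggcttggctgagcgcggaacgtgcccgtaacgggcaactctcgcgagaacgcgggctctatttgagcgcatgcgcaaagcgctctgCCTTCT
Rpl36: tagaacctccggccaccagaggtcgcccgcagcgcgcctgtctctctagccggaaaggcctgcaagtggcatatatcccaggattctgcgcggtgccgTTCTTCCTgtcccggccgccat
The run was 19 bp long in Rps24 and covered the start, whereas that of Rpl18 was 5 bp long. The width of Rps24 and Rpl3 was measured at the gene-record start, which lies 3593 and 8462 bp upstream of the principal start shown here. The start of Rpl18 lies 2614 bp upstream of the nearest RefSeq start of that gene.

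A run of at least 10 pyrimidines near the start was present in 19 of 72 members (26.4%), in 12.8% of the 10874 genes with a promoter peak in all tumors and in 13.7% of all protein-coding genes. The first definition looked at asked for a C at the start base inside a run of at least 5 pyrimidines, and the definition above was set after its values had been seen. By the first definition the tract was present in 13 of the 52 members with a RefSeq start (25%), against 4.96% of genes with a peak. At GENCODE principal starts it was present in 11 of 72 members (15.3%), against 5.27%. All 3 shares were higher in members, and their size depended on the definition.

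Windows of 300 bp, 250 bp of them upstream of the principal start, were searched on both strands for letters of known promoter motifs. The ETS letters CCGGAAG were in 23 of 72 members (31.9%), 19.3% of genes with a peak and 11.2% of all genes. The YY1 letters ATGGCGG were in 13 members (18.1%), 8.46% of genes with a peak and 5.11% of all genes. The SP letters GGGCGG were in 35 members (48.6%), fewer than the 65.1% of genes with a peak and near the 45.4% of all genes. CCAAT was in 30.6% of members and 38.9% of genes with a peak, TATAAA in 11.1% and 6.98%, CACGTG (E-box) in 12.5% and 10.1%, and GCGCATG (NRF1) in 11.1% and 7.41%. Median GC content was 55.8% in members and 60.7% in genes with a peak, and the median number of CpG dinucleotides was 21 in both. These shares are descriptions of letters and were not tested.

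The 4 tumors gave lists of 69861 and 67850 (control) or 65763 and 59762 peaks (test), with no height, score or read depth, so presence and width are the only sizes available. Luminal epithelial markers had a promoter peak for 9, 8, 9 and 8 of 10 genes in control 1, control 2, test 1 and test 2. Basal markers had 4, 1, 3 and 0 of 6, fibroblast markers 3, 3, 2 and 0 of 7, endothelial markers 3, 3, 2 and 0 of 5 and myeloid markers 4, 3, 3 and 2 of 6. No T cell marker (of 4 matched) or adipocyte marker (of 4) had a promoter peak in any tumor, although T cells had been transferred. Test 2, with the fewest peaks, thus also had the fewest stromal markers, and the part of this difference in the results was not tested. In bulk tumors, fewer cells of a type and less acetylation per cell cannot be told apart. Each tumor came from a separate mouse, as the study states.

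Nearly every ribosomal protein gene had an acetylated promoter in every tumor. A peak overlapped the 2-kb window centred on the gene-record start (1 kb on each side) in 71 of 72 members in each of the 4 tumors, and these were the same 71 genes. Among all protein-coding genes, 10874 of 21938 (49.6%) had a promoter peak in all tumors. No member gained or lost its promoter peak between the groups. Over all genes, 117 (0.533%) were marked in the control group only, in each of its tumors, and 66 (0.301%) likewise in the test group only. The count of members was equal in the groups (71 ± 0 against 71 ± 0, SD, n = 2 each; exact permutation test, two-sided, p = 1; the smallest p that 2 against 2 allows is 0.333).

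The exception was Rpl17, a large-subunit protein at the polypeptide exit tunnel. Its gene record begins 1919 bp upstream of its principal start, at which the peak was 3083 and 3578 bp wide in the control and 3607 and 2981 bp in the test tumors. Rpl17 thus carried a broad peak in every tumor, outside the window. Gene-record and principal start differed for 12 members, and at the principal start all 72 members had a peak in all tumors.

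Promoter peaks of the ribosomal protein genes were broad and alike in width. The median width of the widest promoter peak over members was 2281 and 2387 bp in control 1 and 2 and 2456 and 2237 bp in test 1 and 2. Over all genes with a promoter peak in every tumor it was 1472.5, 1565, 1689 and 1531 bp. Members were wider in each tumor, and their median lay between the 74.2 and 77.1 percentile of all genes with a promoter peak in the same tumor. The SD of log2 mean width between genes was 0.49 over the 71 members and 0.97 over all genes. The widest width of a gene exceeded its narrowest by less than 1.5-fold in 55 of 71 members (77.5%) and in 56.6% of all genes. A difference of 2-fold or more occurred in 6 members (8.45%) and in 25.1% of all genes.

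**Figure D1:**
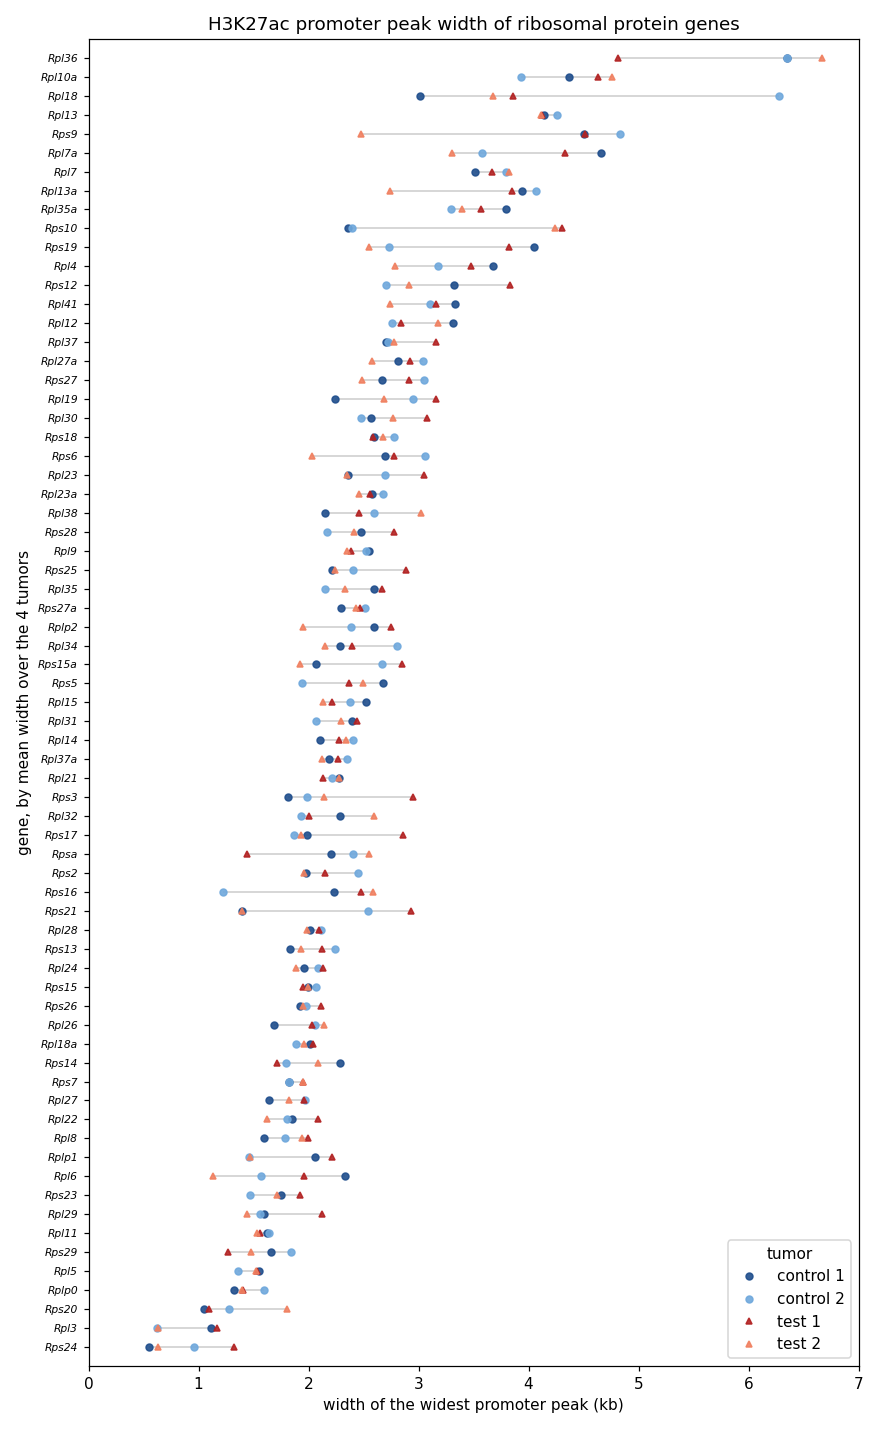
Width in kb (horizontal) of the widest H3K27ac promoter peak of 69 of the 71 members with a peak, the other 2 being not reported here (vertical, ordered by mean width), with circles for control and triangles for test tumors and a grey line from the narrowest to the widest tumor. Most genes lie between about 1.5 and 3.5 kb with control and test symbols intermixed, and Rpl36 stands at the wide end.

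The widest peak belonged to Rpl36, a large-subunit protein, with 6352 and 6350 bp in the control and 4814 and 6665 bp in the test tumors. The Rpl36 peak extended mainly upstream, by 4963 to 5381 bp from the start, and in all 4 tumors it also covered the promoter window of another gene, 2410015M20Rik. In test 1 a gap of 204 bp upstream of the start separated it from the rest, which left the narrower value. Rpl10a, the protein of the flexible L1 stalk, followed with 4370, 3933, 4634 and 4755 bp in control 1, control 2, test 1 and test 2. Rpl18 ranged from 3015 to 6273 bp, as gaps of 221 to 413 bp inside the window split its peak in 3 of 4 tumors. Rpl13 was the steadiest of the widest 5, with 4143 and 4259 bp in the control and 4125 and 4111 bp in the test tumors. Rps9, which helps set the accuracy of decoding, had 4502, 4834, 4516 and, in test 2 alone, 2473 bp.

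The narrowest peak was that of Rps24, with 547 and 959 bp in the control and 1326 and 629 bp in the test tumors. Rpl3, which shapes the peptidyl transferase center, had 1112, 621, 1168 and 628 bp. Neither value describes the principal promoter. At the principal start Rps24 had 1912, 2861, 2164 and 2095 bp and Rpl3 had 2618, 2717, 3142 and 2881 bp, close to the other members. The next narrowest were Rps20, a protein of the small-subunit head, with 1048, 1278, 1094 and 1802 bp, and Rplp0 and Rpl5, whose record and principal starts were the same. Rplp0, the base of the P stalk that recruits translation factors, had 1320, 1595, 1403 and 1398 bp. Rpl5, which with Rpl11 and 5S rRNA can bind Mdm2, had 1550, 1359, 1527 and 1524 bp. Among the members named here, the peak also overlapped the promoter window of another gene in every tumor for Rps24 (Polr3a), Rpl3 (Syngr1), Rps10 (the readthrough record RPS10-NUDT3), Rps18 (Vps52), Rps27a (Clhc1), Rpl41 (Zc3h10) and Rpl4 (Zwilch). It did so for Rpl18 (Sphk2) in the control tumors and for Rps2 (Rnf151) in all tumors but test 2.

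The other stalk proteins had wider mean widths than Rplp0, although Rplp1 was the narrower in control 2. Rplp1 had 2056 and 1458 bp in the control and 2210 and 1470 bp in the test tumors, and Rplp2 had 2598, 2387, 2752 and 1953 bp. In each gene the groups overlapped. Rpl11 had 1618, 1639, 1559 and 1527 bp, a range of 112 bp in which both control values were the higher. Rpsa, also known as a laminin receptor, had 2201, 2402, 1436 and 2550 bp, with the low value in test 1, where a gap of 202 bp over the start split the peak.

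Rps6, the substrate of the S6 kinases, had 2696, 3057, 2775 and 2029 bp. Rps18, often used as a reference transcript, had 2599, 2779, 2582 and 2677 bp. Rps27a, made as a fusion with ubiquitin, had 2299, 2509, 2467 and 2432 bp. The groups overlapped in all 3 genes, and Rps18 and Rps27a differed little between tumors. Rps19, the gene most often mutated in Diamond-Blackfan anemia, had 4052 and 2727 bp in the control and 3818 and 2552 bp in the test tumors, so that the spread within each group exceeded the difference between the groups.

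Peaks reached farther into the genes than upstream of them. The median reach from the start to the downstream edge was 1564 and 1541 bp in the control and 1649 and 1496 bp in the test tumors, and the upstream reach was 614, 617, 656 and 601 bp. The downstream side was the longer in 61 or 62 of 71 members in each tumor (85.9% to 87.3%), against 71.2% to 73.1% of all genes with a peak in every tumor. Downstream reach averaged 1552.5 ± 16.3 bp in control and 1572.5 ± 108 bp in test tumors (SD, n = 2 each; exact permutation test, two-sided, p = 1). At 1000 bp into the gene 93.1% to 95.8% of members lay in a peak, against 49.7% to 55.0% of all genes with a peak. At 1000 bp upstream the shares were 22.2% to 26.4% and 25.9% to 29.7%. Nearer the start on the upstream side members were again covered more often, with 68.1% to 73.6% against 60.3% to 64.1% at 500 bp and 83.3% to 84.7% against 70.6% to 75.8% at 200 bp. At 1500 bp into the gene 73.6% of members were covered in test 1 and 52.8% to 59.7% in the other tumors.

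**Figure D2:**
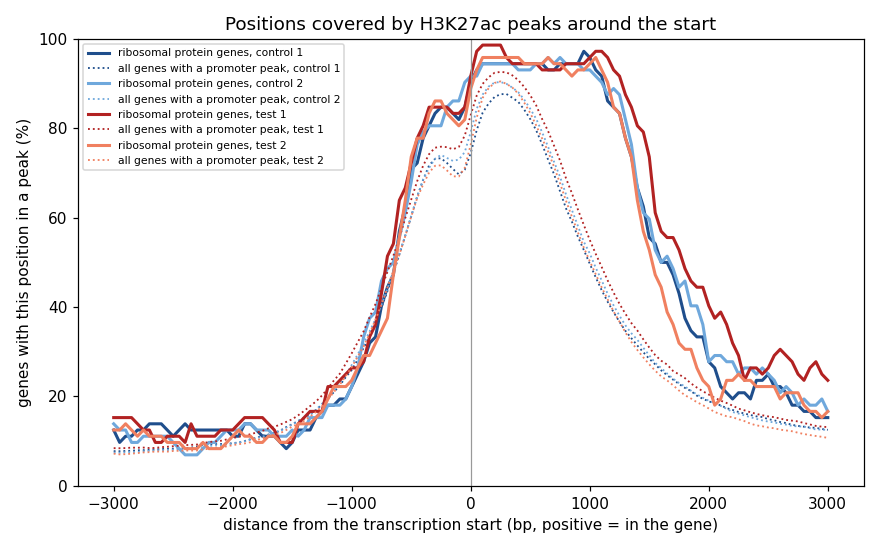
Share of genes (%) with a given position in a peak, against the distance from the gene-record start in bp, for the 72 members (solid) and for all genes with a promoter peak in every tumor (dotted), 1 line per tumor. The lines of members stay above 90% from 200 bp to 1 kb into the gene, where those of all genes have fallen to between 49.7% and 55.0%, and 1 kb upstream the lines of members lie slightly below those of all genes in each tumor.

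Members were short genes, with a median gene length of 3328.5 bp against 17425 bp for all protein-coding genes. A protein-coding gene began within 1 kb on the opposite strand for 8 of 72 members (11.1%), each of them with a peak. The share was 12.6% of genes with a promoter peak in all tumors and 6.79% of all protein-coding genes. The median width of these 8 members was 2617.75 bp, against 2281.75 bp for the other 63 with a peak. Over all genes with a peak the order was the same, with 1730.75 and 1559 bp. Large-subunit genes (n = 42) had a median of mean widths of 2414.6 bp and small-subunit genes (n = 29) of 2159.5 bp, with the order reversed in test 1 (medians of 2417.5 and 2479 bp). The 19 members linked to Diamond-Blackfan anemia had 2299.75 bp and the other 52 had 2387.4 bp. These differences between classes were small beside the range of widths within each class and were not tested.

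Small nucleolar RNAs, which guide chemical modification of ribosomal RNA, are often encoded in introns of ribosomal protein genes. By the annotation 27 of 72 members (37.5%) hosted 54 of them, with 5 in Rpl4 and 4 in Rpl13a, against 1.18% of all protein-coding genes. Of these 54, 28 and 24 lay inside the host's promoter peak in the control and 28 and 21 in the test tumors. The 26 hosts with a peak had a median of mean widths of 2323.75 bp and the 45 other members of 2312 bp. In each tumor, however, the median of hosts was the higher. It was 2329.5 and 2427 bp in the control and 2656.5 and 2404.5 bp in the test tumors. The other members had 2217 and 2347 bp in the control and 2395 and 2142 bp in the test tumors. These differences were not tested.

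In some members the widest peak began close to the start or inside the gene. Upstream reach of the widest peak was under 100 bp in all 4 tumors for Rpl27, Rpl38, Rpl41, Rpl5 and Rps2, 5 of 71 members (7.04%), against 14.6% of all genes. This limit and the count of several peaks that follows were chosen after the data were seen. Rpl38, a protein studied for its role in translating Hox transcripts, reached 2154 and 2571 bp downstream in the control and 2413 and 3007 bp in the test tumors, with an upstream edge between 6 bp inside the gene and 42 bp before it. Rpl41, the shortest ribosomal protein, reached 3241, 3032, 3166 and 2797 bp downstream, and in control 2, test 1 and test 2 a separate peak lay upstream beyond a gap of 266, 326 or 464 bp. Rps2 belonged here only by its gene record, which begins 1947 bp upstream of the principal start.

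**Figure D3:**
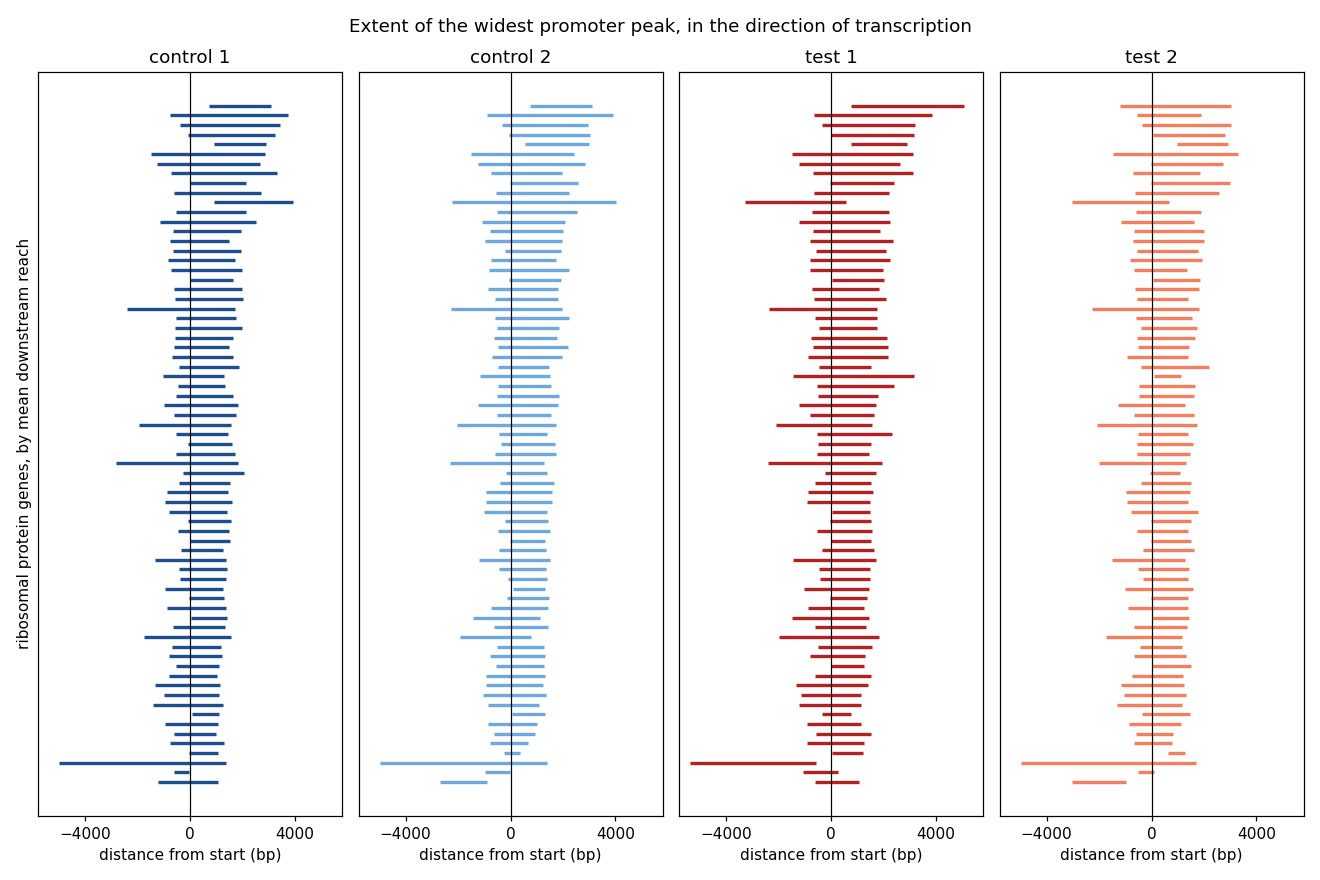
Extent of the widest promoter peak of each of the 71 members (horizontal lines, ordered by mean downstream reach) from its upstream to its downstream edge, in bp from the gene-record start with positive values in the direction of transcription, with 1 panel per tumor. Lines extend farther to the right of the start than to the left in 61 or 62 genes of each panel, and the panels look alike.

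The window held more than 1 peak for 3 and 4 of 71 members in the control and for 9 and 8 in the test tumors (exact permutation test, two-sided, p = 0.333, the smallest possible). All genes with a peak did not share this order, with 2497 and 1985 of 10874 in the control and 1739 and 2002 in the test tumors. The share of members with more than 1 peak was the smaller in each tumor. In all there were 25 gaps over 14 members, with a median length of 241 bp, and 10 of them held the start itself. Peaks within 200 bp of each other were joined in the lists used. The smallest gap left was 201 bp, and shorter ones could not be seen. Rps21 shows what a gap does to width. In control 1 and test 2, where a gap held the start, the widest peak was 1396 and 1391 bp, and in control 2 and test 1, without one, 2536 and 2935 bp. Rps21 was chosen as an example after its values were seen.

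The median width of ribosomal protein promoter peaks differed between the genotypes by less than the spread between tumors. The median width was 2334 ± 75 bp in control and 2346.5 ± 155 bp in test tumors (SD, n = 2 each), a ratio of 1.005 (exact permutation test, two-sided, p = 1). Over all genes with a peak it was 1518.75 ± 65.4 and 1610 ± 112 bp, a ratio of 1.06 (exact permutation test, two-sided, p = 0.667). By limma on log2 width, 0 members passed a Benjamini-Hochberg adjusted p of 0.05, and neither did any other gene in either direction (0% with a wider peak in test and 0% in control tumors). At an unadjusted p under 0.05, limma gave 1 member wider in test and 0 wider in control tumors, against 439 and 199 genes of all 10874. The median log2 ratio of test to control was 0.00 over members and 0.06 over all genes. No other tool was run on widths.

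Both test tumors had a wider peak than both control tumors in 8 of 71 members, and both control tumors in 8. The background over all genes was 24.7% with test wider and 9.6% with control wider, over the same 4 tumors. With log2 widths centred on the median of all genes, the members divided into 4 with test wider and 20 with control wider, so that the even division depends on the scaling. Over all genes 14.1% had test wider and 19.7% had control wider with the same centring. The limit of 2 tumors in each group applies to every one of these orders.

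**Figure D4:**
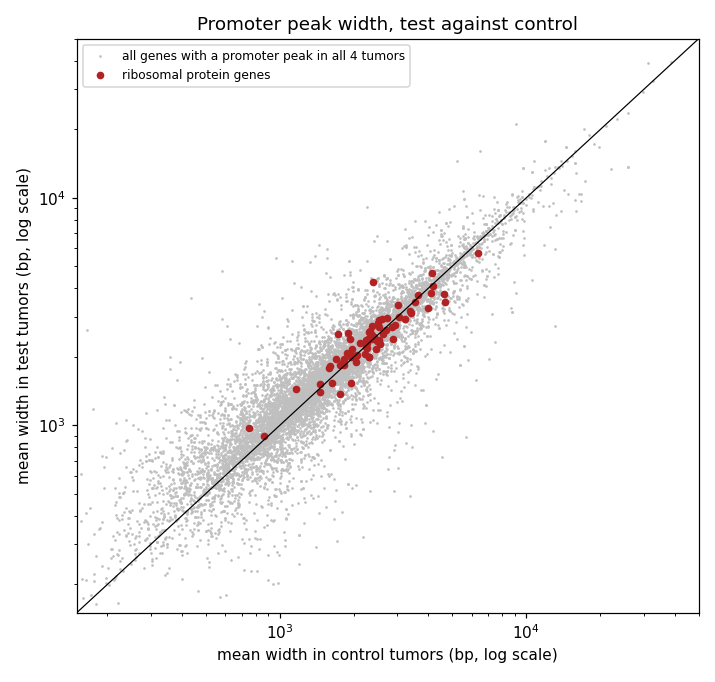
Mean promoter peak width in the 2 test tumors (vertical, bp, log scale) against the 2 control tumors (horizontal, bp, log scale), for all 10874 genes with a peak in every tumor (grey) and the 71 members (red), with the line of equal width. The members lie close to the line, inside the grey cloud. Log2 ratios, taken from mean log2 widths rather than from the plotted means, ran from -0.48 to 0.84 over members. Over all genes they ran from -3.27 to 3.99.

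The 3 members with the largest ratio toward test were of the small subunit. Rps10, at the mRNA entry side and mutated in Diamond-Blackfan anemia, had 2362 and 2398 bp in the control and 4302 and 4237 bp in the test tumors. This is a log2 ratio of 0.84 (SE 0.12, limma adjusted p = 0.361). The added length of the widest peak lay on different sides. It ran to 5068 bp downstream of the record start in test 1 and began 1203 bp upstream of that start in test 2. In test 1 a gap of 424 bp separated the widest peak from another that covered the record start. That start thus lay in a peak in both test tumors and in neither control tumor. Rps16, whose tail contacts the tRNA in the decoding site, had 2233 and 1221 bp in the control and 2479 and 2583 bp in the test tumors (log2 ratio 0.62, SE 0.35, limma adjusted p = 0.926). The low value, in control 2, went with a gap of 201 bp over the start, and the ratio was 0.18 without control 2 and 1.05 without control 1. Rps3, which lines the mRNA entry channel, had 1810 and 1987 bp against 2945 and 2137 bp (log2 ratio 0.40, which was 0.17 without test 1 and 0.63 without test 2). Where peaks within 1 kb were joined, the ratios of Rps10, Rps16 and Rps3 were 0.61, 0.17 and 0.04.

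Among members whose groups did not overlap, Rps29 and Rpl13a had the largest ratios toward control, while larger ones, as that of Rps9 (log2 ratio -0.48), came with overlapping groups. Rps29, also linked to Diamond-Blackfan anemia, had 1655 and 1843 bp in the control and 1264 and 1477 bp in the test tumors (log2 ratio -0.35, SE 0.16, limma adjusted p = 0.926). In both test tumors a gap of 217 or 227 bp at or just before the start cut off its upstream side. Rpl13a, which can leave the ribosome to repress inflammatory transcripts, had 3936, 4071, 3845 and 2744 bp, and only test 2 stood apart. In test 2 a gap of 210 bp before the start cut off the upstream side of the peak. The log2 ratio of Rpl13a was -0.30, and it was -0.06 without test 2 and -0.54 without test 1. With peaks within 1 kb joined, the sign turned for Rps29 (0.13), and the ratio of Rpl13a was -0.05.

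Widths were correlated between tumors, with Pearson's r of log2 width between pairs of tumors from 0.68 to 0.82 over the 71 members and from 0.80 to 0.86 over all 10874 genes. The lowest value over members was that between the test tumors. This is a description across genes, which are not independent replicates.

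Other gene lists of the protein-making machinery gave a scale for these widths. Mitochondrial ribosomal protein genes had a promoter peak in all tumors in 76 of 78 cases and a median of mean widths of 1296.5 bp, narrower than the 2312 bp of members. Ribosome biogenesis genes had 57 of 58 and 1579 bp, translation factors 38 of 39 and 2242 bp, and glycolysis genes, another housekeeping list, 15 of 16 gene records and 3758 bp. Cytosolic and mitochondrial ribosomal protein genes thus had peaks about equally often and differed in width in each tumor, with 2281, 2387, 2456 and 2237 bp against 1212, 1327.5, 1333 and 1286 bp.

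**Figure D5:**
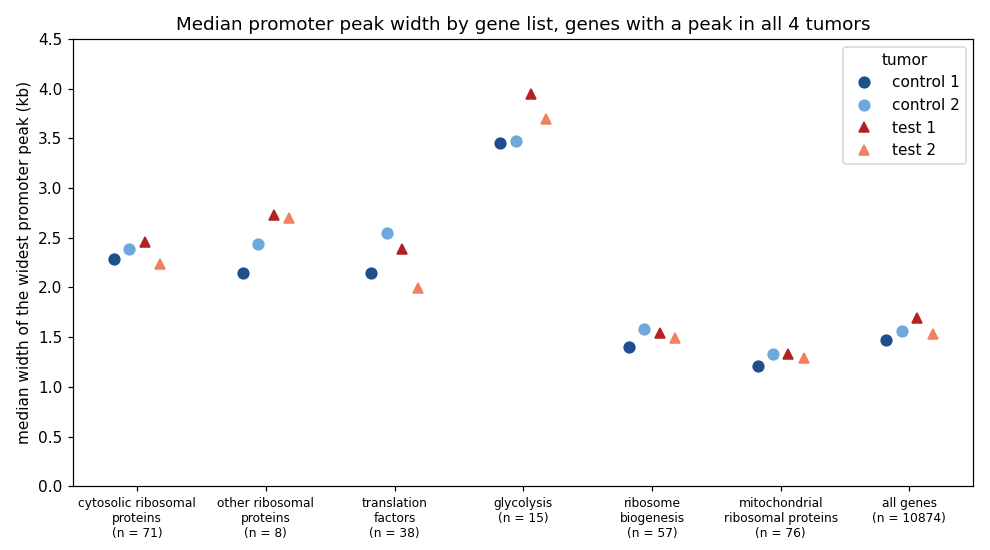
Median width in kb (vertical) of the widest promoter peak of each gene list (horizontal), over genes with a peak in all 4 tumors (n under each name), with circles for control and triangles for test tumors. Cytosolic ribosomal proteins (2237 to 2456 bp) and translation factors (1993 to 2543 bp) lie at a like height, mitochondrial ribosomal proteins and all genes lower, and glycolysis genes higher.

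Ribosomal proteins that the naming rule leaves out behaved like members in presence. All 8 genes, X-linked or named otherwise, had a promoter peak in all tumors. Rps4x had the narrowest, with 1304 and 1248 bp in the control and 1206 and 935 bp in the test tumors. Rack1, a signalling scaffold on the small subunit, had the widest, with 3237, 3315, 3710 and 3280 bp. Of the 7 paralogs of ribosomal proteins, Rpl22l1, Rpl36al, Rpl7l1 and Rps27l had a peak in all tumors. Rpl10l, Rpl39l and Rpl3l, known from testis or muscle, had none in any tumor.

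Processed pseudogenes named after members, copies of their mRNA without the promoter, mostly had no peak. A peak lay within 1 kb of the start in all tumors for 16 of 281 (5.69%), against 3.05% of all 13132 processed pseudogenes and 71 of 72 members. Reads from near-identical copies may be lost or split in mapping, and how such reads were treated is not given in the sources used here.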

How the data were processed

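H3K27ac ChIP-seq peak lists of 4 tumors (2 control, 2 test) were used. Per the labels and methods, the authors aligned reads to mm10 with BWA and called peaks in each tumor against its matched input with MACS2 at a q-value of 0.01; versions are not given in the sources used here, and the input files were not analysed here. The deposited positions are peak starts and ends, joined where they lay within 200 bp, without score, so read depth is unknown. Starts were shifted to count from 1. The promoter was the GENCODE M21 gene-record 5′ end with 1 kb on each side, and the widest overlapping peak (1 bp or more) gave the width. Widths were compared over tumors with exact permutation tests, and log2 widths of 10874 genes with limma version 3.58.1 in R version 4.3.3 (Benjamini-Hochberg), after tests on simulated data. Promoter sequence came from GRCm38.p6, and no peak ran past a chromosome end. Genes named were the 5 widest and narrowest, those without a peak, the 3 largest ratios in each direction among members whose groups did not overlap, and a fixed list; a few genes that this rule names are not reported here, and Rpl4, Rpl27, Rpl38, Rpl41, Rps2 and Rps21 were named after their values were seen. Members, gene lists and tests were chosen with earlier results of these data known.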

Additional observations from a re-analysis of the deposited data

How the results depend on the processing

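The limits are 2 tumors in each group, no peak heights and no depth. The count of members with a promoter peak in all tumors stayed between 58 (a peak over the start itself required) and 72. The test minus control difference in members with a peak, 0 as reported, was 1.5 with a window of 500 bp, -0.5 with a peak over the start required and 0.5 with peaks of at least 1 kb. The ratio of median width turned below 1 with a window of 500 bp (0.999) and with centred widths (0.948), and ranged from 0.958 (without test 1) to 1.05 (without test 2) when 1 tumor was left out. The difference in downstream reach, 20 bp as reported, was -15.5 bp at principal starts, -3 bp with a peak over the start and -1.25 bp with peaks of at least 1 kb, and ranged from -56.5 bp without test 1 to 96.5 bp without test 2. Counts of members with non-overlapping groups, 8 and 8, were 4 (test wider, 14.1% of all genes) and 20 (control wider, 19.7% of all genes) with centred widths. Leaving out 1 tumor compares fewer values, and gave 16 (without test 1) to 29 (without test 2) with test wider and 14 (without test 2) to 29 (without test 1) with control wider, and 22 and 24 without control 1, 22 and 18 without control 2. Over all genes these settings gave 35.4% to 51.2% with test wider and 17.4% to 33.9% with control wider. The log2 ratio of Rps29 became 0.13 with peaks within 1 kb joined; the cause was not tested. Limma called 0 genes and 0 members under each alternative that kept all 4 tumors. At an unadjusted p under 0.05 these alternatives gave 0 or 1 member. Over all genes they gave from 346 of 7126 (a peak over the start required) to 762 of 11948 (a peak in at least 2 tumors). Leave-one-out fits take the lone tumor to vary like the others, so no calls are given for them. No paired analysis was possible because the labels give no replicate numbers, and those used here follow accession order and only name the tumors.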
